A study of Mus musculus with 4 samples.

Results

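Hmga2-positive cells were drawn from the 2 single-cell RNA libraries of C3H10T1/2 mesenchymal progenitor cells (MPC) expressing H3R26C. A cell was Hmga2-positive when its barcode held at least 5000 UMIs, at least 1500 genes and at most 20% UMIs of mitochondrial (mt-) genes, with at least 3 UMIs of Hmga2. A UMI (unique molecular identifier) marks 1 captured RNA molecule, so the counts are of distinct molecules. The rule found 1045 Hmga2-positive cells among 12346 kept H3R26C cells and 22049 kept cells of the series. Of these, 171 were among 4727 H3R26C DMSO cells and 874 among 7619 H3R26C 5-Aza cells. Each was compared, within its own library, with the kept cells that had no Hmga2 UMI, 4167 with DMSO and 5287 with 5-Aza. Results are also given for low-cycle cells, those with at most 1 UMI over the proliferation genes Mki67, Top2a, Cdk1, Ccnb2 and Rrm2. Because cells were selected on Hmga2, its own level in them is given only as a description.

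C3H10T1/2 is a mouse embryo fibroblast line, here clone 8, that keeps the capacity to form muscle, fat and other mesenchymal cells. The study asked how histone H3 carrying an arginine-to-cysteine substitution affects their differentiation. All 4 libraries were of cells transduced with a lentivirus in which the EF1 promoter drove human histone H3.1 with C-terminal HA and FLAG tags, under puromycin selection as a pooled line, beside the endogenous histone H3 of the cells. The transgene was H3R26C or, in the H3WT controls, the unmutated histone. Cells received 5-Azacytidine (5-Aza), an inhibitor of DNA methyltransferases, at 3 µM for 24 h and were collected on day 28, or received the DMSO vehicle, for which the day of collection is not stated. The effects of 5-Aza and of time in culture therefore cannot be told apart. Each of the 4 conditions is 1 library, so that no difference below was tested against replicate error and no p-value is given. All intervals in parentheses are exact 95% intervals that cover counting error only. The kept cells held 84060490 UMIs with DMSO and 110712425 with 5-Aza. Any pair of libraries shared 24 to 58 barcodes, and the DMSO and 5-Aza members shared 0.

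HMGA2 is a small chromatin protein that binds the minor groove of AT-rich DNA through AT-hook motifs and bends it, without being a transcription factor in the strict sense. It is abundant in the embryo and in proliferating mesenchymal progenitors, is silenced in most adult tissues, and is rearranged or overexpressed in lipomas and other mesenchymal tumors. Its transcript is a classical target of the let-7 microRNAs, which accumulate as cells differentiate. Hmga2 (ENSMUSG00000056758) lies on the minus strand at chr10:120361275-120476469 of GRCm38, the build of the deposited counts. Mature let-7 was not measured here, and the sequences are shown because they define which transcripts carry the let-7 seed match. All 8 mouse let-7 5p forms, let-7a to let-7g and let-7i, share the seed at bases 2 to 8, in capitals below (RefSeq, GRCm38.p6).
mmu-let-7a-5p: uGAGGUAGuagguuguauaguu
mmu-let-7e-5p: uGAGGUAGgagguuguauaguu
mmu-let-7i-5p: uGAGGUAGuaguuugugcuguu
The 3′ UTR of Hmga2, 3014 bases in its longest GENCODE M21 form, holds 4 matches to this seed, CTACCTC, in capitals below. They lie at chr10:120364222-120364246, chr10:120362985-120363009, chr10:120362547-120362571 and chr10:120361689-120361713 on the minus strand.
Hmga2 site 1: gccgacattcaatttCTACCTCagc
Hmga2 site 2: ccccactcctcaataCTACCTCtga
Hmga2 site 3: ctgatttgcaaggaaCTACCTCcac
Hmga2 site 4: aatcaaaacacactaCTACCTCtta
The 3′ UTR of Hmga1, its paralog with the same AT-hook architecture, holds 1 match at chr17:27563277-27563301 on the plus strand.
Hmga1 site: tcctctgttcacaaaCTACCTCtgg

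Hmga2 was a sparse transcript, with at least 1 UMI in 11.8% of the H3R26C DMSO cells and 30.6% of the H3R26C 5-Aza cells. Over all kept cells its level was 20.1 CPM (UMIs of the gene scaled to a fixed library total; 19.2 to 21.1) in H3R26C DMSO and 71.9 CPM (70.3 to 73.5) in H3R26C 5-Aza, against 6.52 and 9.37 CPM in H3WT DMSO and H3WT 5-Aza. Hmga2-positive cells made up 3.62% (3.103% to 4.19%) of the H3R26C DMSO and 11.47% (10.8% to 12.2%) of the H3R26C 5-Aza cells. In H3WT, 44 of 3710 DMSO cells (1.19%) and 69 of 5993 5-Aza cells (1.15%) met the same rule. The 4 libraries thus fell in the order H3WT, H3R26C DMSO, H3R26C 5-Aza. At this minimum of 3 UMIs the shares of both H3WT libraries lay within each other's counting intervals. A fixed number of UMIs is reached more easily in deep cells, so each cell was also thinned to 5000 UMIs. At least 1 Hmga2 UMI then remained in 4.87% of H3R26C DMSO, 17.8% of H3R26C 5-Aza, 1.43% of H3WT DMSO and 2.55% of H3WT 5-Aza cells. Cells with at least 8 of 13 adipocyte markers held no Hmga2-positive cell in either H3R26C library (0 of 13, interval to 24.7%, with DMSO and 0 of 16, interval to 20.6%, with 5-Aza) although their median depths, 25251 and 20896.5 UMIs, were above those of the kept cells without Hmga2. With at least 3 of the markers, 2.84% of the DMSO cells and 5.15% of the 5-Aza cells were Hmga2-positive.

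**Figure D1:**
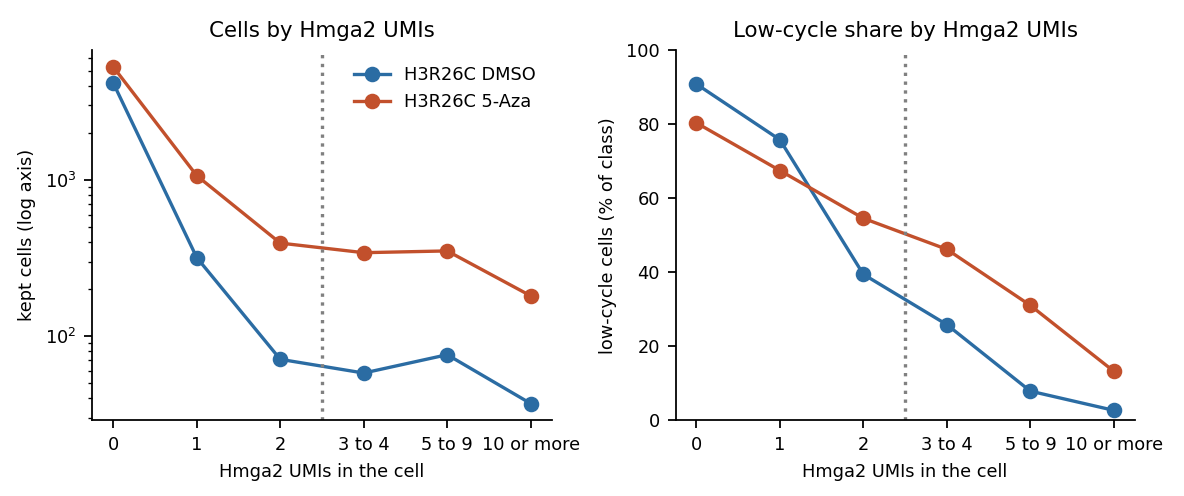
Kept cells of the H3R26C libraries by their number of Hmga2 UMIs (x axis), with the number of cells on a log axis on the left and the percent of them that were low-cycle on the right; the dotted line marks the threshold of the rule. The low-cycle percent ran from 90.8% in cells with 0 Hmga2 UMIs to 2.70% in cells with 10 or more with DMSO, and from 80.4% to 13.3% with 5-Aza.

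Members carried a median of 6 Hmga2 UMIs with DMSO (quartiles 4 and 9, highest 34) and of 5 with 5-Aza (quartiles 4 and 9, highest 43). On both sides of the threshold cells were similar in depth and cycle. With DMSO, the 71 cells with exactly 2 UMIs had a median of 23783 UMIs and 39.4% were low-cycle, and the 39 with exactly 3 had 27033 UMIs and 30.8%. With 5-Aza, the 394 cells with exactly 2 UMIs had a median of 15579 UMIs and 54.6% were low-cycle, and the 202 with exactly 3 had 14862 UMIs and 48.5%. Hmga2-positive is therefore a range cut from a continuous count, with no gap at the threshold.

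Hmga2-positive cells were mostly cells past the low-cycle limit. Only 22 of the 171 members with DMSO (12.9%, 8.24% to 18.8%) and 291 of the 874 with 5-Aza (33.3%, 30.2% to 36.5%) were low-cycle, against 90.8% and 80.4% of the cells with no Hmga2 UMI. Seen from the cycle, 149 of 651 DMSO cells past the low-cycle limit were Hmga2-positive (22.9%, 19.7% to 26.3%), against 0.540% (0.339% to 0.816%) of the low-cycle cells. With 5-Aza, 583 of 2147 cells past the limit (27.2%, 25.3% to 29.1%) and 5.32% (4.74% to 5.95%) of the low-cycle cells were Hmga2-positive. The shares of the 2 libraries were thus nearer to each other past the limit than among low-cycle cells. The corresponding H3WT shares were 8.50% and 6.98% past the limit and 0.302% and 0.324% in low-cycle cells.

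Depth moved with both. The median depth of members was 30412 UMIs against 16228 in cells without Hmga2 with DMSO, and 19219.5 against 12388 with 5-Aza. With each library divided into 4 depth bins of near equal size, in the deepest bin of the DMSO cells, 1.76% of the low-cycle cells (median 23270 UMIs) and 31.8% of the cells past the limit (28548 UMIs) were Hmga2-positive. In the deepest bin of the 5-Aza cells these shares were 9.94% (20297 UMIs) and 39.4% (23086 UMIs), and in the shallowest 2.31% and 10.3%. The share was higher past the limit within each depth bin of both H3R26C libraries, although in the shallowest DMSO bin this rested on 2 of 50 against 0 of 1132 cells. With cells thinned to 5000 UMIs and the cycle read from the thinned counts, at least 1 Hmga2 UMI was found in 2.82% of low-cycle and 25.4% of the other DMSO cells, and in 14.5% and 33.0% with 5-Aza.

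**Figure D2:**
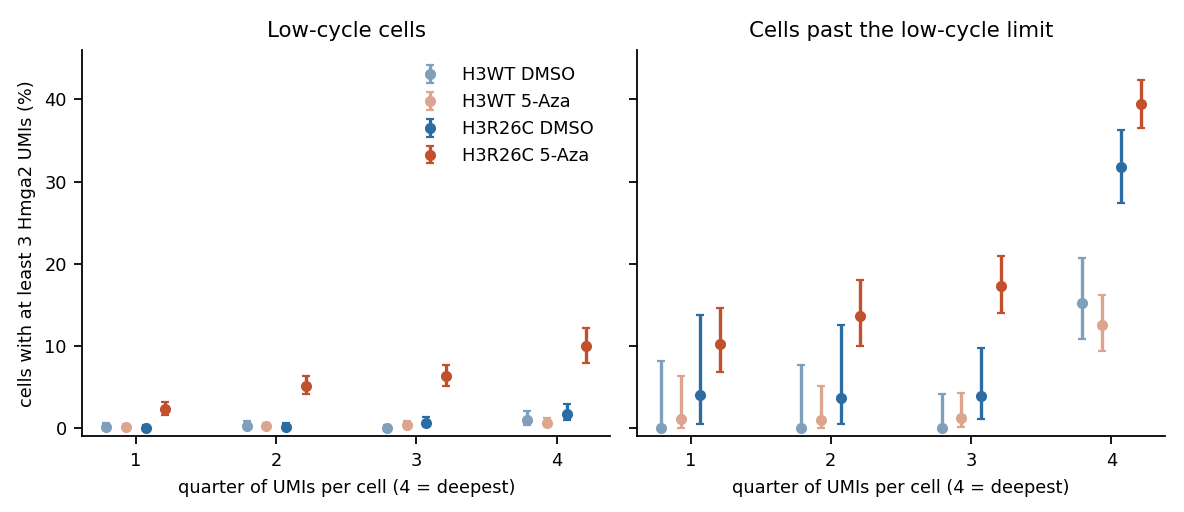
Percent of cells with at least 3 Hmga2 UMIs (y axis, with exact 95% binomial intervals as bars) in 4 depth bins of each library (x axis), for low-cycle cells and for cells past the low-cycle limit. In the deepest bin of H3R26C 5-Aza the shares were 9.94% and 39.4%, against 0.628% and 12.5% in H3WT 5-Aza.

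The label was checked against markers of the cells the cultures could hold. Of the members, 50.9% with DMSO and 21.2% with 5-Aza lay above the 95th percentile of UMIs of their library, against 2.496% and 2.23% of the cells without Hmga2, and no doublet caller was run. Among low-cycle members these shares were 13.6% and 6.53%. Endothelial markers summed to 0 CPM in low-cycle members with DMSO and to 9.55 CPM in the 5-Aza library, against 5.79 and 10.8 CPM in low-cycle cells without Hmga2. Blood markers summed to 11.7 and 15.1 CPM in members, against 10.1 and 16.1 CPM. Both sums were of similar size in members and in the other cells or lower in members. The mitochondrial share was lower in members (median 1.55% against 2.85% with DMSO and 1.90% against 2.71% with 5-Aza) and the ribosomal protein gene share higher (18.6% against 16.5%, and 18.6% against 15.1%), and the part of these in the results was not tested.

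Gene levels were compared on counts summed over members and over cells with no Hmga2 UMI, as log2 ratios of CPM + 1. A gene was described when its mean over both sums reached 20 CPM and its counts 20 UMIs, and a gene was counted when it differed at least 2-fold. Over all kept cells with DMSO, 540 of 6434 described genes (8.39%) were at least 2-fold higher and 539 (8.38%) at least 2-fold lower in members. With 5-Aza, 307 of 6312 genes (4.86%) were higher and 400 (6.34%) lower. Restricting both groups to low-cycle cells left 271 of 6331 genes (4.28%) higher and 353 (5.58%) lower with DMSO, and 139 of 6281 (2.21%) higher and 245 (3.9%) lower with 5-Aza. The median log2 ratio over all described genes was within 0.03 of 0 in each comparison. Of 5762 genes described in the low-cycle cells of both libraries, 56 were higher in both, which is 25.7% of those higher with DMSO and 70.9% of those higher with 5-Aza, and 124 were lower in both, 42.2% and 59.3% of the respective lists. The DMSO values rest on 22 low-cycle members and their intervals are wide. With the comparison cells matched to the members in depth, the log2 ratios of Hmga1, the highest ranked gene, were 4.16 and 3.41, and those of Sfrp2, the lowest, −4.02 and −3.64, so both differences were also found at like depth.

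Over all kept cells, Hmga1 was at 487 CPM in members and 17.7 CPM in the cells without Hmga2 with DMSO (27.6-fold) and at 474 against 35.9 CPM in the 5-Aza library (13.2-fold). Fosl1 was 25.02-fold and 7.51-fold and Spp1 6.53-fold and 1.62-fold higher, Sfrp2 had ratios of 0.0545 and 0.101 and Clec3b of 0.0773 and 0.102. As most members lay past the low-cycle limit and most of the other cells did not, genes were named from the low-cycle cells. Uhrf1, which guides DNA methylation maintenance in S phase, was 13.2-fold higher with DMSO over all kept cells and 5.36-fold with 5-Aza, and Birc5, the mitotic survivin gene, 8.91-fold and 3.37-fold. Of the collagens 8 of 11 and 5 of 12 were at least 2-fold lower over all kept cells, of the elastic fiber genes 7 of 10 and 9 of 10, and of the skeletal muscle markers with 5-Aza 10 of 12.

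In low-cycle cells, the 12 genes ranked highest by the smaller of both libraries' log2 ratios were Hmga1, Fosl1, Mcm3, Itga6, Ccl2, Psat1, Mcm6, Tnfrsf12a, Lgals3, Stmn2, Ctnnal1 and Emp1. Hmga1 (chr17:27556497-27563674) led the ranking. It was at 258 CPM in members and 14.4 CPM in cells without Hmga2 with DMSO, 17.9-fold higher (14.8 to 21.6), and at 337 against 31.3 CPM in the 5-Aza library, 10.7-fold higher (10.02 to 11.53). After thinning to 5000 UMIs, a Hmga1 UMI was found in 63.6% of members and 6.53% of the other cells with DMSO, and in 65.0% and 12.5% with 5-Aza. The gene set also holds a near-identical copy, Hmga1b, so the Hmga1 counts are uncertain where reads fit both.

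In what follows, each value of members is set against that of the cells with no Hmga2 UMI. Fosl1 (chr19:5447547-5455946), the AP-1 subunit FRA-1, was at 109 CPM in members and 4.78 CPM in the other cells with DMSO (22.9-fold, 16.9 to 30.5) and at 142 against 20.6 CPM in the 5-Aza library (6.93-fold, 6.28 to 7.64). Itga6, the laminin-binding integrin subunit alpha 6, was 14.5-fold (9.63 to 21.1) and 4.30-fold (3.79 to 4.88) higher. The higher ratio with DMSO for both genes came with lower levels in the DMSO cells without Hmga2. Tnfrsf12a, the receptor for the cytokine TWEAK, was higher by similar folds in both libraries, 3.07 (2.49 to 3.75) and 3.205 (3.01 to 3.42). Emp1, an epithelial membrane protein, was 2.57-fold and 2.66-fold higher. Ctnnal1, an alpha-catenin-like protein, was 3.11-fold (1.96 to 4.70) and 2.68-fold (2.31 to 3.097) higher. Stmn2, a microtubule regulator of the stathmin family, was 29.5-fold (21.4 to 40.0) higher with DMSO and 2.74-fold (2.28 to 3.28) with 5-Aza.

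Ccl2 (chr11:82035571-82037453), a chemokine that attracts monocytes, was at 740 CPM in members and 34.8 CPM in the other cells with DMSO, but 1 of the 22 low-cycle members held 56.2% of these UMIs and without it the log2 ratio was 3.24 in place of 4.37. With 5-Aza it was at 181 against 48.3 CPM, 3.74-fold higher (3.45 to 4.05). Lgals3 (chr14:47367751-47386160), which encodes galectin-3, was at 1096 against 205 CPM in the DMSO library (5.35-fold) and at 1017 against 377 CPM in the 5-Aza library (2.70-fold). Spp1 (chr5:104435118-104441050), which encodes the secreted phosphoprotein osteopontin, was at 2494 against 215 CPM in the DMSO library (11.6-fold, 10.9 to 12.3) and at 9389 against 3894 CPM in the 5-Aza library (2.41-fold, 2.39 to 2.44). Spp1 was thus higher in the members of each library, and its levels in both groups of cells were higher in the 5-Aza than in the DMSO library. Psat1, an enzyme of serine synthesis, was 5.09-fold (3.67 to 6.88) and 3.58-fold (3.30 to 3.88) higher. Mcm3 and Mcm6, subunits of the replicative helicase, were 6.38-fold and 4.78-fold higher with DMSO and 4.87-fold and 3.38-fold with 5-Aza. The low-cycle limit had removed only cells with more than 1 UMI over 5 other proliferation genes. With DMSO, 9 of the 22 low-cycle members and 3160 of the 3785 other cells held no such UMI. With 5-Aza, 185 of 291 and 3128 of 4248 held none.

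**Figure D3:**
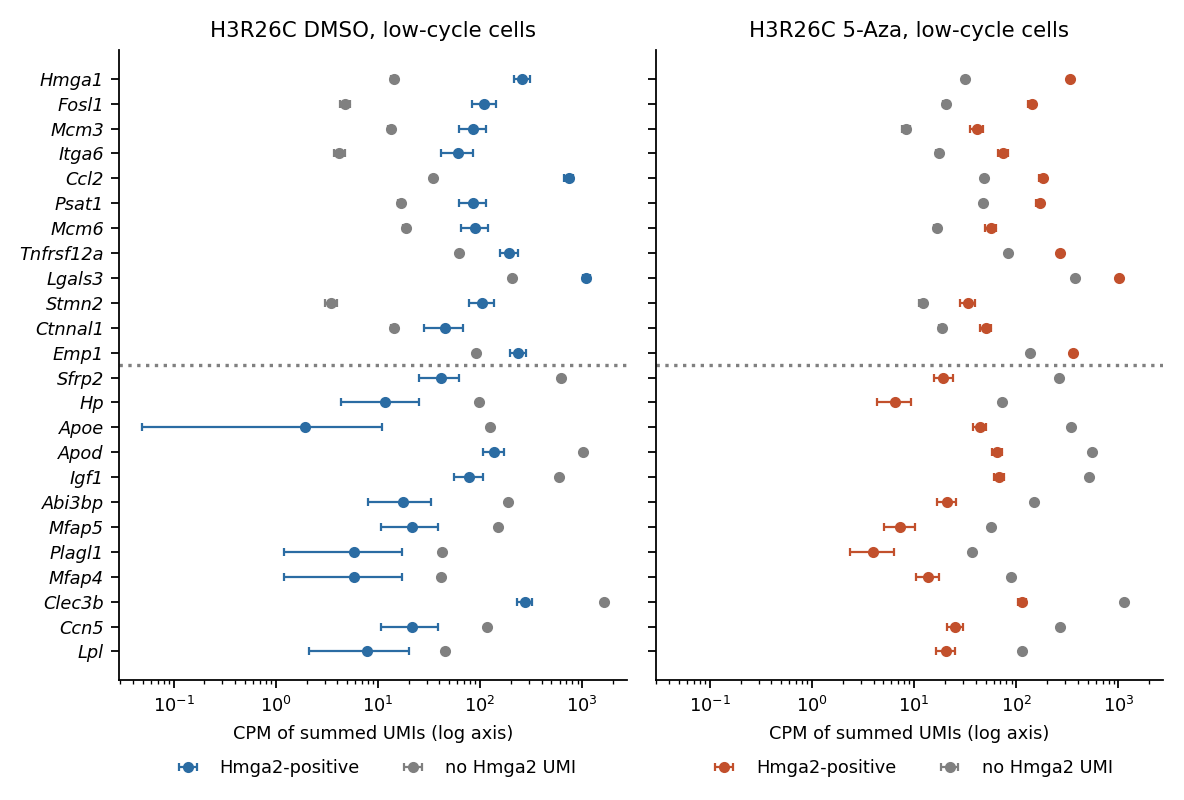
Level in CPM of summed UMIs (log x axis, exact 95% Poisson intervals as bars) in low-cycle Hmga2-positive cells (colored points) and low-cycle cells with no Hmga2 UMI (gray points), with H3R26C DMSO on the left and H3R26C 5-Aza on the right. The 12 genes above the dotted line are those ranked highest and the 12 below it those ranked lowest, each on the same side in both libraries as the ranking requires. The widest interval is that of Apoe in the DMSO members, which held 1 UMI.

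The 12 lowest genes were Sfrp2, Hp, Apoe, Apod, Igf1, Abi3bp, Mfap5, Plagl1, Mfap4, Clec3b, Ccn5 and Lpl. Sfrp2 (chr3:83766321-83774316), a secreted modulator of Wnt signaling, was at 41.0 CPM in members and 619 CPM in the other cells with DMSO and at 19.3 against 260 CPM in the 5-Aza library, ratios of 0.0663 (0.0410 to 0.101) and 0.0745 (0.0596 to 0.0919). In the DMSO library 1 low-cycle member held 81.0% of the Sfrp2 UMIs, and without it the log2 ratio was −6.04 in place of −3.88. A Sfrp2 UMI remained after thinning in 4.55% of members and 57.6% of the other cells with DMSO, and in 3.78% and 22.1% with 5-Aza. Clec3b (chr9:123150946-123157432), which encodes the plasminogen-binding protein tetranectin, was at 274 against 1617 CPM in the DMSO library and at 113 against 1136 CPM in the 5-Aza library, and Igf1, the insulin-like growth factor, at 78.1 against 589 CPM and at 67.3 against 520 CPM. For Igf1 the ratios of both libraries, 0.133 (0.0948 to 0.181) and 0.130 (0.115 to 0.145), lay within each other's counting interval.

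The lipoprotein genes Apod and Apoe were lower in members too. Apod was at 137 against 1029 CPM in the DMSO library, where 1 member held 42.9% of its UMIs (log2 ratio −3.66 without it), and at 64.4 against 551 CPM in the 5-Aza library. Apoe was found in the low-cycle DMSO members with 1 UMI, a ratio of 0.0157 (3.98e-04 to 0.0877), and was at 43.8 against 341 CPM in the 5-Aza library. Lpl, the lipoprotein lipase that adipocytes secrete, had ratios of 0.173 (0.0471 to 0.444) and 0.179 (0.144 to 0.220). Of the matrix genes, Abi3bp had ratios of 0.0934 and 0.142, the microfibril-associated proteins Mfap5 and Mfap4 of 0.145 and 0.141 with DMSO and of 0.131 and 0.154 with 5-Aza, and Ccn5, a matricellular protein, of 0.184 and 0.0939. Without the 1 member that held most UMIs of each in the DMSO library, the log2 ratios were further from 0 for Clec3b (−3.22 in place of −2.56), Mfap5 (−3.69 in place of −2.73), Mfap4 (−3.80 in place of −2.63), Ccn5 (−3.35 in place of −2.39) and Lpl (−3.15 in place of −2.39), and likewise in the 5-Aza library for Mfap5 (−3.72 in place of −2.78). Hp, the hemoglobin-binding haptoglobin, had ratios of 0.121 and 0.0898, with 66.7% of its UMIs in 1 of the DMSO members (log2 ratio −4.23 without it) and 48.3% in 1 of the 5-Aza members (−4.06 without it). Plagl1, an imprinted zinc finger gene, had 3 UMIs in the DMSO members, a ratio of 0.138 (0.0284 to 0.403), and a ratio of 0.109 (0.0648 to 0.174) with 5-Aza.

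Several of these genes differed stepwise with the number of Hmga2 UMIs, also among cells below the threshold. In low-cycle 5-Aza cells with 0, 1, 2, 3 to 4, 5 to 9 and 10 or more Hmga2 UMIs, Hmga1 was at 31.3, 72.0, 117, 224, 389 and 766 CPM. In the same classes Fosl1 was at 20.6, 33.8, 62.6, 104, 172 and 247 CPM. Clec3b was in the opposite order, at 1136, 513, 364, 138, 89.1 and 66.3 CPM. Spp1 went from 3894 to 10420 CPM in cells with 5 to 9 UMIs and was at 8069 CPM in the 24 cells with 10 or more, so that it did not follow Hmga2 over the whole range. With DMSO, where the classes above 2 hold few low-cycle cells, Hmga1 was at 14.4, 22.0, 28.2, 208 and 359 CPM in cells with 0, 1, 2, 3 to 4 and 5 to 9 Hmga2 UMIs. Between 2 and 3 to 4 Hmga2 UMIs the DMSO level thus differed more than between the classes below.

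**Figure D4:**
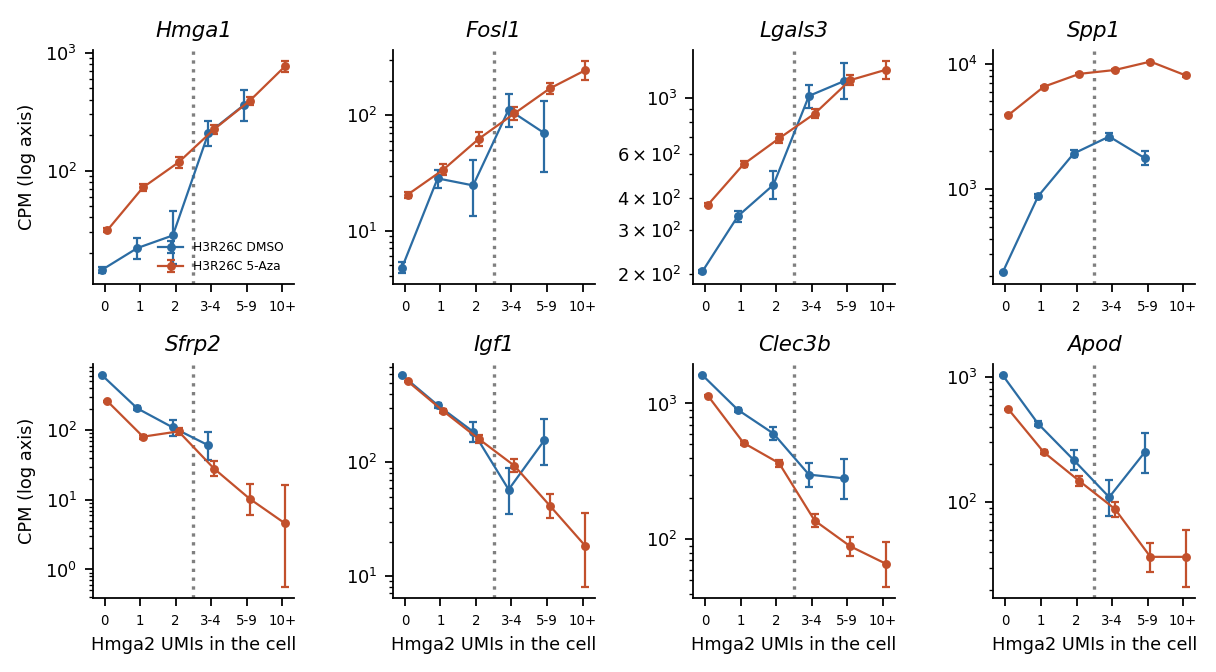
Level in CPM (log axis, exact 95% Poisson intervals as bars) of 8 genes in low-cycle cells by their number of Hmga2 UMIs, for both H3R26C libraries. Hmga1 and Fosl1 were higher and Clec3b, Apod and Igf1 lower with more Hmga2 UMIs in the 5-Aza library, with Igf1 at 520 CPM in cells with 0 and 18.3 CPM in cells with 10 or more.

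Gene lists were read as counts and medians of log2 ratios, beside the shares of all described genes given above. Of the replication genes expressed in S phase, 16 of 16 described with DMSO and 13 of 14 with 5-Aza were at least 2-fold higher in members over all kept cells (medians 2.68 and 1.75), and of the genes of G2 and mitosis 18 of 18 and 17 of 18 (2.64 and 1.40). In low-cycle cells no G2 and mitosis gene was described. The 20 genes of that list summed to 66.4 CPM in members against 22.2 CPM with DMSO, and to 100.2 against 53.7 CPM with 5-Aza. Of the S phase genes, 7 of 9 with DMSO (median 1.97) and 3 of 5 with 5-Aza (1.07) were at least 2-fold higher. A gene near the floor in the other cells was described only if it was high in members, so these counts and medians lean upward. At a minimum of 50 CPM the DMSO median was 0.98. All 20 genes of the S phase list, described or not, summed to 769.6 against 234.5 CPM with DMSO and to 427.8 against 207.4 CPM with 5-Aza. The described genes are not a free sample of the list. The described S phase genes ranged from Mcm5 (3.88), a further helicase subunit, to the sliding clamp gene Pcna (0.84) with DMSO. Among cells with no UMI over the 5 limit genes, the S phase medians were 0.86 and 0.62. Replication-dependent histones had 0 genes at least 2-fold apart among the 3 and 2 described in low-cycle cells.

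Regulators of growth and arrest were mixed. Of the cyclins and growth drivers, 3 of 6 with DMSO and 3 of 7 with 5-Aza were higher in low-cycle members (medians 0.75 and 0.39, and −0.040 and −0.11 at a minimum of 50 CPM). Ccnd1, the D-type cyclin that drives entry into the cycle, was at 342 against 152 CPM in the DMSO library and at 514 against 164 CPM in the 5-Aza library (3.13-fold, 2.99 to 3.28). The growth-promoting transcription factor gene Myc was 2.28-fold (1.55 to 3.23) and 3.64-fold (3.199 to 4.14) higher, whereas Ccnd2 had log2 ratios of −0.42 in both libraries. Of the CDK inhibitors and p53 targets, 1 of 8 was higher in each library, Ccng1 with DMSO and Perp with 5-Aza, and 0 were lower (medians 0.16 and 0.36). Cdkn1a, the p21 inhibitor, was at 285 against 146 CPM in the DMSO library and at 423 against 294 CPM in the 5-Aza library. In the DMSO library 1 of the 22 members held 41.8% of the Cdkn1a UMIs, and the log2 ratio was 0.24 without it in place of 0.96 and −0.36 among cells with no UMI over the 5 limit genes. Cdkn1b, the p27 inhibitor, had log2 ratios of −0.58 and −0.99. Cdkn2a, which encodes p16 and ARF and is known as a locus that HMGA2 holds down in neural stem cells, had 0 UMIs in low-cycle members of both libraries and 3 and 28 UMIs in the cells without Hmga2, so no difference was detectable at this depth.

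Relatives of Hmga2 were followed in the HMG list and the oncofetal list. Of the other HMG chromatin proteins, 2 of 5 with DMSO and 0 of 5 with 5-Aza were at least 2-fold higher in low-cycle members (medians 0.96 and 0.23), led by Hmgb2, a DNA-bending protein abundant in cycling cells, at log2 ratios of 1.69 and 0.59. Of the oncofetal and let-7 axis genes, Hmga1 was the 1 gene at least 2-fold higher in each library, among 6 and 7 described, and 3 with DMSO and 1 with 5-Aza were lower (medians −0.43 and −0.44, the latter 0.014 with at least 5 Hmga2 UMIs). Igf2bp1, an oncofetal RNA-binding protein whose transcript holds 4 let-7 seed matches, was 1.60-fold (0.975 to 2.48) and 1.21-fold (1.01 to 1.45) higher. Igf2bp2, with 1 match, was 1.37-fold (0.876 to 2.05) and 1.64-fold (1.43 to 1.87) higher. Lin28b, the repressor of let-7 maturation with 4 matches, had 0 UMIs in low-cycle members of both libraries, and Igf2bp3 had 1 UMI in each. The imprinted gene Dlk1 had log2 ratios of −2.05 with DMSO and −0.69 with 5-Aza.

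The let-7 seed match CTACCTC, read on the transcript strand of each gene's longest 3′ UTR, was found in 2132 of 21173 genes (10.1%). It was in 7 of the 55 genes with a 3′ UTR that were at least 2-fold higher in low-cycle members of both libraries (12.7%) and in 13 of 122 that were lower in both (10.7%), near the 10.05% of the genes described in both. In the oncofetal and let-7 axis list, which was assembled for known let-7 targets, it was in 10 of 15 genes. Of the 24 ranked genes, Hmga1 and Igf1 held 1 match each. Genes next to Hmga2 on chromosome 10, within 0.129 to 1.11 Mb of it, had 0 of 7 and 0 of 6 described genes at least 2-fold apart (medians 0.16 and 0.02).

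Chromatin modifier genes were mixed. Of the PRC2 genes, which encode the complex that methylates H3K27, 1 of 8 with DMSO and 0 of 7 with 5-Aza was at least 2-fold higher (medians 0.25 and 0.03). Ezh2, its catalytic subunit, was 2.72-fold (1.67 to 4.18) higher with DMSO and 1.44-fold (1.16 to 1.77) with 5-Aza, where it was below the level for description. DNA methylation genes had medians of −0.25 (7 described, 2 higher, 1 lower) and 0.43 (4 described, 0 apart, and −0.023 at a minimum of 5 CPM). Dnmt1, the maintenance methyltransferase that 5-Aza traps, was 2.55-fold (1.83 to 3.45) and 1.58-fold (1.35 to 1.83) higher in members.

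Matrix gene lists had medians below 0. In low-cycle cells, 5 of 11 collagens of the list with DMSO and 3 of 12 with 5-Aza were at least 2-fold lower and 0 higher (medians −0.82 and −0.83). Each described collagen of this list lay below 0. Col2a1, held in the chondrocyte list instead, had a log2 ratio of 1.90 with DMSO. Col3a1 was at 836 against 2659 CPM in the DMSO library and at 1416 against 3792 CPM in the 5-Aza library. Of the elastic fiber genes, 7 of 10 and 6 of 10 were lower (medians −1.58 and −1.22), with Eln, the elastin gene, at 13.7 against 146 CPM, where 1 of the 22 DMSO members held 6 of the 7 UMIs (log2 ratio −5.57 in place of −3.33 without it), and at 18.2 against 84.1 CPM. Of the small leucine-rich proteoglycans, which bind and space collagen fibrils, 4 of 6 and 6 of 8 were lower (medians −1.73 and −1.45), Dcn (decorin) being at 494 against 1668 CPM and at 732 against 2099 CPM. IGF-binding and IGF receptor genes were lower at 4 of 7 and 3 of 9, with 1 higher in each library, Igfbp3 with DMSO and Igfbp6 with 5-Aza (medians −1.04 and −0.57). Igfbp5 was at 129 against 1333 CPM in the DMSO library, where 1 member held 68.2% of its UMIs (log2 ratio −4.92 in place of −3.36 without it), and at 387 against 1108 CPM in the 5-Aza library.

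Signaling and stress lists differed in part. TGF-beta and BMP genes were lower at 5 of 9 with DMSO and 0 of 11 with 5-Aza (medians −1.09 and −0.69), and regulators of the mesenchymal state at 0 of 11 in both libraries (−0.14 and −0.31), with Vim, the intermediate filament vimentin, at log2 ratios of 0.74 and 0.55. Immediate early genes were lower at 4 of 14 and 3 of 13 (−0.70 and −0.23). Among them was Fos, another AP-1 subunit gene, at log2 ratios of −1.68 and −1.54 where Fosl1 was at 4.26 and 2.73. Interferon-stimulated genes had 1 of 8 higher and 2 lower with DMSO and 0 of 16 apart with 5-Aza (−0.84 and −0.33). Heat shock genes had 0 of 5 apart in both libraries (0.03 and 0.27), and nuclear-retained transcripts 2 of 5 and 0 of 5 lower (−0.92 and −0.45).

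**Figure D5:**
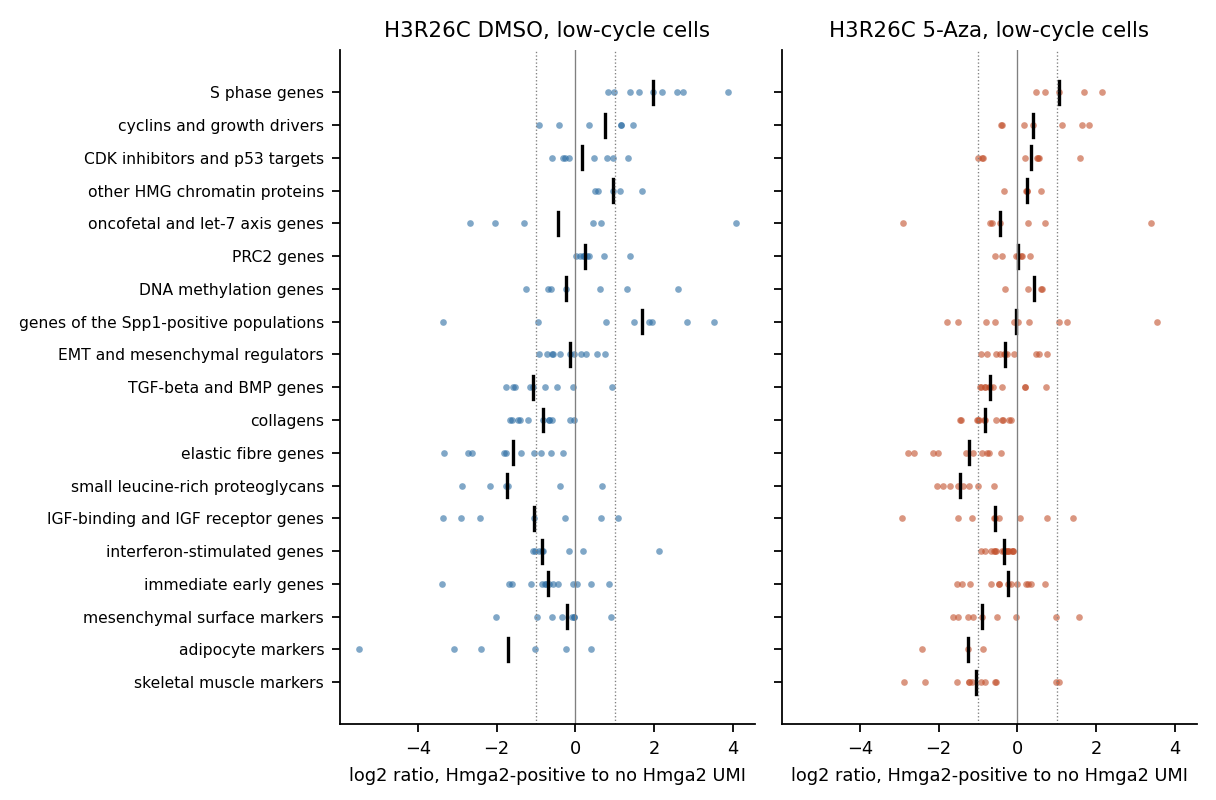
Log2 ratios of CPM + 1 between Hmga2-positive and Hmga2-negative low-cycle cells for the described genes of 19 lists, with 1 point for each gene, bars at the list medians and dotted lines at 2-fold. Medians lay highest for the S phase genes (1.97 with DMSO and 1.07 with 5-Aza). They lay below −1.2 in both libraries for the elastic fiber genes, the small leucine-rich proteoglycans and the adipocyte markers.

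Summed markers of fat were lower in low-cycle members of both libraries and those of muscle in the 5-Aza library. Adipocyte markers summed to 148 CPM in low-cycle members and 374 CPM in the other cells with DMSO, where 7 of the 13 were at 0 in members, and to 116 against 366 CPM in the 5-Aza library, also with 7 at 0. Of those described, 4 of 6 and 2 of 3 were at least 2-fold lower (medians −1.70 and −1.26). Skeletal muscle markers summed to 0 CPM in low-cycle members and 2.54 CPM in the other cells of the DMSO library, too low for a difference to be detectable in 22 members, and to 1348 against 2570 CPM in the 5-Aza library, with 6 of 12 lower and 1 higher (median −1.04). The gene at least 2-fold higher was Myod1, the myogenic determination factor, at 54.0 against 25.4 CPM, whereas Myh3, the embryonic myosin heavy chain of differentiating myotubes, was at 17.1 against 133 CPM. Among the 209 5-Aza cells with at least 10 of the 13 muscle markers (median 21428 UMIs), 19 were Hmga2-positive (9.09%, 5.56% to 13.8%), and among the 4036 with at least 3 of them 501 (12.4%, 11.4% to 13.5%). At least 3 muscle markers were thus found in 4036 of the 7619 cells of this library, and the part of free RNA in these values was not tested. Of the other lineages, the smooth muscle actin gene Acta2 had log2 ratios of 1.71 with DMSO and −0.15 with 5-Aza, the chondrocyte markers a median of 1.20 (2 described, Col2a1 at 1.90) and 0.15 (1 described), and the osteoblast markers 0 of 1 and 0 of 2 genes apart (medians −0.07 and 0.19).

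Progenitor markers were mixed. Of the mesenchymal surface markers, 0 of 8 with DMSO and 1 of 9 with 5-Aza were at least 2-fold higher and 1 and 4 lower (medians −0.22 and −0.91). Ly6a, the progenitor antigen Sca-1, was at 627 against 648 CPM in the DMSO library (ratio 0.968, 0.865 to 1.08) and at 908 against 1976 CPM in the 5-Aza library (0.459, 0.445 to 0.474). Over all kept cells, those with a UMI of both Ly6a and Spp1 made up 95.9% of members and 23.3% of the other cells with DMSO. With 5-Aza these shares were 92.4% and 89.8%. Among low-cycle cells they were 86.4% (65.1% to 97.1%) and 20.5% with DMSO, and 92.8% and 88.9% with 5-Aza. These shares too were not taken from thinned counts, and members were deeper. Genes of the Spp1-positive populations were higher at 5 of 8 and lower at 1 with DMSO (median 1.68) and higher at 3 of 10 and lower at 2 with 5-Aza (−0.04). Plac8 was at 269 against 468 CPM and Enpp2, the autotaxin gene, at 180 against 266 CPM in low-cycle 5-Aza cells, both lower in members. Cells with at least 10 Enpp2 UMIs made up 5.15% (3.78% to 6.83%) of the 5-Aza members and 9.72% (8.94% to 10.6%) of the cells without Hmga2, but among low-cycle cells 8.59% (5.64% to 12.4%) and 10.7% (9.75% to 11.6%), intervals that overlap.

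Msln and Cd34 were higher in members with 5-Aza. Msln (chr17:25748613-25754378), the mesothelial surface protein mesothelin, was at 115 CPM in low-cycle members and 9.03 CPM in the other cells (12.8-fold, 11.3 to 14.5), and Cd34, a sialomucin of stem and progenitor cells, at 35.8 against 11.4 CPM (3.15-fold, 2.63 to 3.75). With DMSO, Msln had 0 UMIs in both low-cycle groups and no member held both genes (0 of 171, interval to 2.13%). Cells with a UMI of both genes made up 17.7% (15.3% to 20.4%) of the 5-Aza members and 1.63% (1.30% to 2.01%) of the cells without Hmga2. Of the 328 such cells, 155 were Hmga2-positive (47.3%, 41.8% to 52.8%). Among low-cycle 5-Aza cells, they made up 14.8% (10.9% to 19.4%) of members and 1.39% (1.06% to 1.79%) of cells without Hmga2. Members were nevertheless not uniform for Msln. The 455 members with a Msln UMI were 24.8% low-cycle and held Hmga1 at 556 CPM, Cd34 at 53.8 CPM and Myod1 at 19.5 CPM. The 419 members without were 42.5% low-cycle and held them at 369, 11.9 and 88.0 CPM. Spp1 was close in both, at 6315 and 6635 CPM, and their median depths were 20999 and 17171 UMIs.

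To compare cells that were all past the low-cycle limit, members of this kind were set against those with no Hmga2 UMI, 149 against 382 with DMSO and 583 against 1039 with 5-Aza. The members were deeper, with medians of 31224 against 21854 UMIs with DMSO and 22240 against 15493 with 5-Aza. These groups were not matched in depth. The summed level of the 5 limit genes was alike, 1278 against 1249 CPM in the DMSO library and 1075 against 1139 CPM in the 5-Aza library, and the G2 and mitosis genes summed to 2569 against 2593 CPM and to 2447 against 2594 CPM. S phase genes summed to 2208 against 1438 CPM in the DMSO library and to 1486 against 929 CPM in the 5-Aza library. In these cells Hmga1 was 12.2-fold (10.9 to 13.7) and 10.4-fold (9.67 to 11.2) higher, Fosl1 7.89-fold and 4.95-fold, and Ccl2 11.1-fold and 4.13-fold. Clec3b had ratios of 0.0910 and 0.152 and Sfrp2 of 0.0851 and 0.154. All 24 ranked genes lay on the same side as in low-cycle cells. However, Mcm6 and Emp1 were under 2-fold in both libraries, and Mcm3 and Ctnnal1 with DMSO. With 5-Aza, Ctnnal1 had a ratio of 2.015 and a log2 ratio of CPM + 1 of 0.98. Cdkn1a, outside the ranking, lay on the other side from its low-cycle values, with ratios of 0.692 (0.641 to 0.746) and 0.8998 (0.866 to 0.935).

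H3WT held few low-cycle members, 10 with DMSO and 17 with 5-Aza, and their values are given beside those of H3R26C. With so few cells, 1 member often held most UMIs of a gene. Hmga1 was 12.3-fold (9.01 to 16.5) and 16.02-fold (12.2 to 20.7) higher in members, but in the DMSO library 1 of the 10 held 70.8% of its UMIs and without it the log2 ratio was 2.15 in place of 3.50. Fosl1 was 39.96-fold and 26.04-fold higher, with 82.9% of its UMIs in 1 DMSO member (log2 ratio 2.73 in place of 4.82 without it). Lgals3 was 4.58-fold and 5.11-fold and Spp1 12.8-fold and 5.26-fold higher. Clec3b had ratios of 0.148 and 0.150, and log2 ratios of −3.98 and −3.35 in place of −2.75 and −2.74 without the member that held most of its UMIs. Each of these differences lay on the same side as in H3R26C, with and without that member. This did not hold for every ranked gene. For Ccl2, 1 member held 94.7% of the UMIs with DMSO and 62.1% with 5-Aza. Without it the Ccl2 log2 ratios were −2.005 and 0.048. Those of Mcm3 without its top member were 0.089 and 0.58. Sfrp2 had ratios of 0.0797 (0.0425 to 0.136) with DMSO, with 53.8% of its UMIs in 1 member (log2 ratio −4.60 without it), and 0.612 (0.486 to 0.761) with 5-Aza. Stmn2 had 0 UMIs in the H3WT low-cycle members of both libraries, and 36 and 30 UMIs in the members past the limit, against 1 and 8 in the cells past the limit without Hmga2. The 30 UMIs of the 5-Aza library were all in 1 cell. Ctnnal1 had 4 and 1 UMIs in the H3WT low-cycle members, ratios of 0.780 (0.212 to 2.00) and 0.234 (0.00591 to 1.30) whose intervals include 1. In the 34 DMSO and 52 5-Aza H3WT members past the limit, Ccl2 was 34.1-fold and 4.71-fold higher and Mcm3 3.33-fold and 1.64-fold. Sfrp2 there had ratios of 0.0328 and 0.046. The ratios of Ctnnal1 there, 1.01 (0.643 to 1.53) and 1.49 (0.979 to 2.2), again had intervals that include 1. Whether any of these values differed between the genotypes was not tested, as each condition is 1 library.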

How the data were processed

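The authors dissociated C3H10T1/2 cells, sequenced them on the 10X Genomics platform and, per the submitters' processing notes and the study's methods, counted UMIs with Cell Ranger 6 on mm10 (GRCm38), with Seurat 4 downstream. The deposited matrices hold raw UMI counts, whole numbers without normalization, for 32285 genes, including barcodes under the study's cell filter. That filter was reapplied (at least 5000 UMIs, 1500 genes, at most 20% mt- UMIs). No doublets were removed. Depth of kept cells was 84060490 and 110712425 UMIs for the H3R26C libraries and 86871326 and 84345500 for H3WT. No per-sample column was left unmapped.

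Counts were summed over members and over cells with no Hmga2 UMI of the same library and scaled to CPM, and log2 ratios were taken with a pseudocount of 1 CPM. With 1 library per condition no test was made. Shares have Clopper-Pearson, sums Poisson and ratios conditional binomial intervals, at 95%. Named genes were the 12 highest and 12 lowest by the smaller log2 ratio of both libraries in low-cycle cells, plus genes named in advance from the lists and each list's extremes. Members and all 29 gene lists were chosen with earlier results of these data known, and the split of members by Msln, the cells rich in muscle or adipocyte markers, the values in cells past the low-cycle limit and the let-7 host transcripts were chosen after the values were seen. Cells were thinned to 5000 UMIs by sampling without replacement. Scripts were tested on simulated counts. GENCODE M21 (32158 of 32285 gene IDs matched) gave positions and 3′ UTRs and RefSeq the microRNAs. Python 3.11.15, numpy 2.4.6, scipy 1.17.1, pandas 2.3.3, R 4.3.3 and edgeR 4.0.16 (TMM scaling factors only) were used. Alternatives changed the Hmga2 and expression minimums, comparison cells, depth matching, per-cell averaging, scaling, pseudocount, cell filter, deep cells, marker-bearing cells and the cycle limit. The transgene was not analysed here.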

Additional observations from a re-analysis of the deposited data

Results flagged for a closer look

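Barcodes that failed the cell filter were outside every comparison, and in the H3R26C 5-Aza library some of them met the Hmga2 minimum. There, 43 of 4491 such barcodes held at least 3 Hmga2 UMIs, 0.9575% (0.694% to 1.29%). The share was 1 of 1813 (0.0552%) with H3R26C DMSO, 0 of 2529 with H3WT DMSO (interval to 0.146%) and 0 of 9009 with H3WT 5-Aza (interval to 0.0409%). With a looser filter of at least 1000 UMIs and 500 genes, 917 of 9732 H3R26C 5-Aza barcodes were Hmga2-positive.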

How the results depend on the processing

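No paired analysis was possible because GEO's labels hold 1 library per condition and pair none of them. The share of Hmga2-positive cells depends on its minimum: it was 5.12% (DMSO) and 16.6% (5-Aza) at 2 UMIs, 2.39% and 6.98% at 5 UMIs, and 0.444% and 3.29% when 3 UMIs were required after thinning. With the looser cell filter the 5-Aza share was 9.42%. Counts of genes at least 2-fold apart depend on the expression minimum and, in all kept cells, on depth. With all kept cells and a depth-matched comparison, 300 genes were higher with DMSO and 171 with 5-Aza. At a mean of at least 50 CPM, 284 were higher and 294 lower with DMSO and 154 and 210 with 5-Aza, and at 5 CPM, 881 and 1058 with DMSO and 552 and 757 with 5-Aza. In low-cycle cells these were 122 and 154 with DMSO and 57 and 134 with 5-Aza at 50 CPM, and 592 and 876 and 279 and 493 at 5 CPM. With at least 5 Hmga2 UMIs, which leaves 7 low-cycle members with DMSO, 631 genes were higher and 575 lower with DMSO and 222 higher with 5-Aza. Without cells bearing muscle or adipocyte markers, 470 were higher with DMSO. The S phase median in low-cycle cells was 0.98 with DMSO at 50 CPM, 0.86 with DMSO and 0.62 with 5-Aza in cells with no UMI over the 5 limit genes, and 1.49 with 5-Aza without marker-bearing cells. The sign was reversed for cyclins and growth drivers at 50 CPM (−0.040 with DMSO and −0.11 with 5-Aza), for Cdkn1a with DMSO in cells with no UMI over the 5 genes (−0.36), for the oncofetal list with 5-Aza at 5 Hmga2 UMIs (0.014) and for the DNA methylation list with 5-Aza at 5 CPM (−0.023). The cause of these was not tested, other than the fewer or more genes or cells that the setting itself leaves. Over the 24 ranked genes, 672 of 672 values under the alternatives had the same direction and 661 were at least 2-fold. These genes were chosen for large ratios of 1 direction in these data, and most alternatives reuse the same cells. This agreement was therefore largely set by the choice and is no independent check. Without cells above the 95th percentile of UMIs, Hmga1 in low-cycle cells had log2 ratios of 4.11 and 3.43 and Fosl1 of 4.16 and 2.77. The 22 low-cycle DMSO members, with 511973 UMIs, limit what can be said of that library.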

Other observations

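Transcripts that span let-7 loci, chosen after their values were seen, were read in low-cycle cells, although a host transcript is no measure of the mature microRNA. Mir99ahg, a long noncoding RNA that spans a let-7c locus on chromosome 16, was at 44.9 CPM in Hmga2-positive cells and 112 CPM in cells with no Hmga2 UMI with DMSO (ratio 0.401, 0.254 to 0.603) and at 20.7 and 63.4 CPM with 5-Aza (0.326, 0.262 to 0.401). Huwe1, a ubiquitin ligase gene that spans a let-7f locus, had ratios of 0.731 (0.558 to 0.942) and 0.803 (0.721 to 0.891). Wdr82, which spans let-7g, had ratios of 0.707 (0.403 to 1.15) and 1.02 (0.847 to 1.21), and Spaca6, which spans let-7e, of 0.699 (0.144 to 2.05) and 0.836 (0.582 to 1.17). Lncppara, which spans a let-7b and a let-7c locus, had 2 and 7 UMIs in members and ratios of 1.31 (0.158 to 4.81) and 0.708 (0.279 to 1.505). The transcript over the let-7a, let-7d and let-7f cluster, 6720427I07Rik, had 1 and 13 UMIs in members.

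Among the 56 genes at least 2-fold higher in low-cycle members of both libraries, chosen for naming after their values were seen, were the caveolin genes Cav1 and Cav2 beside Itga6, Met and Cd82 at the cell surface, and Psat1, Shmt2 and Asns among enzymes of serine, one-carbon and asparagine metabolism. Among the 124 lower in both were the Wnt modulators Sfrp1 and Sfrp2 and the Wnt receptors Fzd1 and Fzd4, and the complement genes C1s1, C1ra and C3.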
